A study of Saccharomyces cerevisiae with 22 samples.

Results

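Ribosome biogenesis factors of budding yeast were followed in chemostat cultures that moved from galactose to glucose. The members are the genes whose standard symbol is UTP, NOP, RRP, NOC, NSA or RPF with a number, IMP3, IMP4, and RPA with a number. Of 69 such symbols in the reference gene table, 68 had a row among the 6242 genes of the arrays, and NOP10 had none. They were sorted by role into 7 subunits of RNA polymerase I, 6 proteins of the UTP-A complex, 4 of UTP-B, 4 of UTP-C and the Imp pair, 4 snoRNP proteins, 16 other small subunit factors, 20 large subunit factors and 7 proteins of the exosome.

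RNA from 3 chemostats of Saccharomyces cerevisiae was measured on 22 two-colour arrays against a common pool that mixed glucose-grown and galactose-grown material. The no3AT chemostat, grown without inhibitor, gave 2 arrays of total RNA at galactose steady state (305 and 316 h), 4 in glucose before steady state (344, 353, 385 and 478 h) and 2 at glucose steady state (507 and 526 h). The 3AT40mM chemostat held 40 mM 3AT (aminotriazole, which blocks His3, an enzyme of histidine synthesis) and gave total RNA in galactose at 477 and 522 h, in glucose at 552, 574, 592, 850 and 878 h, and at glucose steady state at 937 h. The no3AT2 chemostat, a repeat culture without inhibitor, gave polyA RNA: 1 galactose array, glucose at 315 and 328 h, and 3 arrays at glucose steady state. From what is known of the study, HIS3 is driven by the GAL1 promoter in these cells. The strain is not given in the sources used here. Each condition is 1 culture, so culture, inhibitor and, for no3AT2, RNA type cannot be told apart. In bulk RNA, fewer cells with a transcript and less of it per cell cannot be told apart.

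Ribosome assembly in yeast begins in the nucleolus, where RNA polymerase I transcribes the long precursor of the ribosomal RNAs. The UTP complexes, the U3 snoRNP and many other factors gather on this precursor as the small subunit processome. Another set of factors builds and exports the large subunit, while snoRNPs modify the RNA and the exosome trims it. In yeast the genes of these factors are known to be transcribed strongly when growth is fast and to be shut down together with ribosomal protein genes under stress.

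All levels are centred log2 ratios of sample over reference, so 0 is the level of the median gene of that array, and a difference of 1 is a 2-fold change. The 552 h array of 3AT40mM is labelled glucose, yet GAL7, an enzyme of galactose breakdown, stood there at -0.81, between the -0.91 and -0.80 of the galactose arrays of the same culture, and at -4.87 at 574 h. Over all genes its correlation was 0.87 with the galactose array at 522 h and -0.20 with the glucose array at 574 h. The count of members passing in early glucose and the early changes of those members are also given without it. GAL7 had no value at 592 h and read -1.41, -1.09 and -1.23 at 850, 878 and 937 h, nearer to galactose than to 574 h. Against the galactose mean of 3AT40mM, GAL1 changed by 0.205 at 937 h, GAL10 by -0.56 and HIS3 by -0.96. In no3AT, GAL1 changed by 0.33 and 0.28 at 478 and 526 h, where GAL7 changed by -2.45 and -2.52. These arrays were kept under their labels, and the cause was not tested. Of the 231 pairs of arrays, 10 correlated under -0.3, the lowest at -0.45. The labels state Cy5 for every sample and Cy3 for the pool, and the direction was kept as stated.

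The members did not move as a block. Their median was highest on the 574 h array of 3AT40mM, at 0.50, where 47 of the 66 measured members lay above 0. It was 0.36 at 592 h, 0.18 at 850 h, 0.07 at 878 h and -0.13 at glucose steady state (937 h), after 0.10 and 0.07 in galactose and 0.09 at 552 h. Within this culture the median thus stood highest at 574 h, where GAL7 read lowest, and lay lower on each later array. In no3AT the medians of all 8 arrays lay between -0.08 and 0.16. In no3AT2 the median was 0.23 in galactose, -0.11 and 0.03 in early glucose, and 0.25, 0.05 and 0.01 at glucose steady state. In no3AT both galactose medians (0.086 and 0.062) lay above both at glucose steady state (-0.035 and 0.014), and the glucose arrays before steady state overlapped with either. In no3AT2 the galactose median lay above both in early glucose and within the range at glucose steady state.

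**Figure D1:**
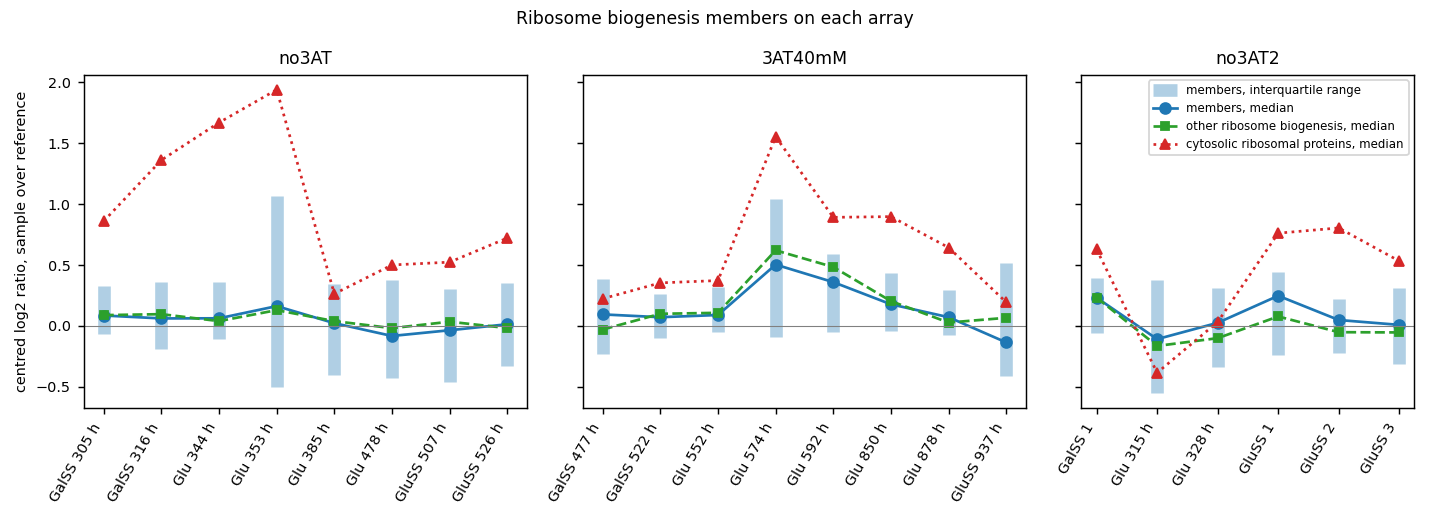
Centred log2 ratio (vertical axis) on each of the 22 arrays (horizontal axis, by chemostat), as the median of the members with their interquartile range (bars), and the medians of other ribosome biogenesis genes and of cytosolic ribosomal protein genes. The member median peaks at 0.50 at 574 h in 3AT40mM and stays between -0.08 and 0.16 in no3AT.

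Against the mean of the galactose arrays of their own culture, 16 of 66 members were at least 2-fold higher at 574 h, or 24.2%, where 16.3% of all measured genes were. At least 2-fold lower were 6 members, or 9.09%, against 21.3% of all genes. The 16 included UTP15, NOP8, NOP13, NSA2, RRP4 and NOP58. The 6 were IMP3, NOP9, UTP18, UTP25, RPA34 and UTP10. The early no3AT array at 353 h had 12 members of 61 higher (19.7%, all genes 18.4%) and 6 lower (9.84%, all genes 11.9%). At 315 h in no3AT2, 11 of 54 were higher (20.4%, all genes 20.2%) and 8 lower (14.8%, all genes 24.2%). At 344 h in no3AT no member was higher (all genes 2.94%) and 2 were lower (3.17%, all genes 4.4%). At 552 h in 3AT40mM no member was past 2-fold either way, beside 0.0501% of all genes higher and 0.0334% lower. The share of members at least 2-fold higher stood above that of all genes on the 574 h array and close to it at 353 and 315 h.

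Cytosolic ribosomal protein genes, 135 measured by the symbols RPL, RPS or RPP with a number (which also takes in RPP1, a subunit of RNase P), are described beside the members because both groups supply the ribosome. Their median was 1.55 at 574 h and 1.94 at 353 h, where the members stood at 0.50 and 0.16. The 103 other ribosome biogenesis genes, a list of factors whose symbols the rule does not take in, stayed near the members, with medians of 0.62 at 574 h, 0.48 at 592 h and 0.13 at 353 h. Over the 22 arrays the median correlation between 2 members was 0.06 (33 members with all values, 528 pairs). It was 0.65 between 2 ribosomal protein genes (114 genes) and 0.00 between any 2 genes. The member median and the ribosomal protein median correlated at 0.26. These are descriptions of arrays that share cultures and a reference.

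**Figure D2:**
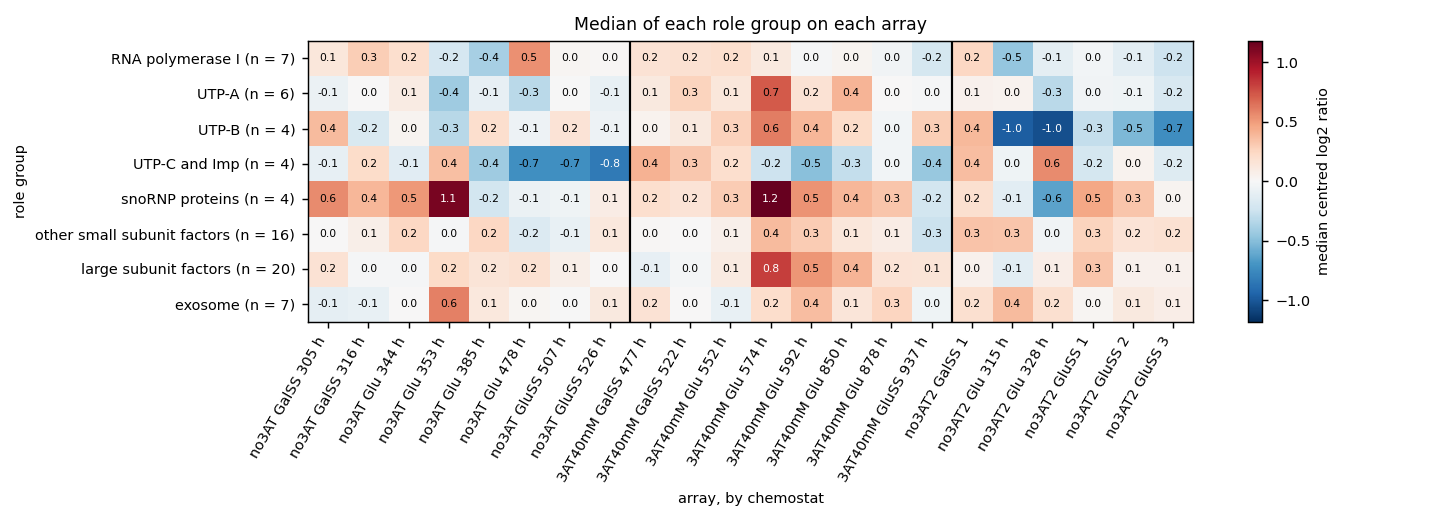
Median centred log2 ratio (colour and printed value) of the measured members of each role group (rows, with the number of members) on each array (columns, black lines between chemostats). The snoRNP proteins reach 1.2 at 574 h in 3AT40mM and 1.1 at 353 h in no3AT, while UTP-C and Imp lie below 0 from 574 h on in 3AT40mM.

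RNA polymerase I makes the ribosomal RNA precursor. Its 2 largest subunits, which form the catalytic centre, were measured poorly: RPA135 had values on 6 arrays and RPA190 on 13, so neither was tested. RPA135 read 0.14 and 0.51 in galactose in no3AT, 0.06 and -0.49 at 344 and 353 h, -0.24 at 478 h and 0.27 at 526 h. RPA190 read 0.46 in galactose and -1.50 at 353 h in no3AT. In 3AT40mM it read -0.06, 0.17, -0.04, -0.32 and -0.05 at 477, 522, 552, 850 and 878 h. In no3AT2 it read 0.74 in galactose, -0.75 and -0.55 in early glucose and -0.03, -0.23 and -0.14 at glucose steady state. In no3AT2 all 5 glucose arrays lay below the single galactose array.

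RPA12, the subunit known for RNA cleavage by the stalled polymerase, was higher in glucose in both cultures without inhibitor on all but 1 array, that of no3AT at 353 h. In no3AT it read -0.01 and -0.25 in galactose, 0.39, -0.42, 0.69 and 1.45 in glucose, and 0.67 and 0.97 at glucose steady state. Its no3AT2 values were -0.07 in galactose, 1.30 and 0.69 in early glucose and 0.60, 0.21 and 0.53 at steady state. In 3AT40mM it stayed between -0.05 and 0.28 on all 8 arrays. Its change at glucose steady state, 0.53, did not pass the test over chemostats, and with the neighbour-corrected values described below it was 0.04. RPA34, which pairs with RPA49, and RPA14, which with RPA43 forms the stalk, were lower in glucose and are described with the tests. RPA49 was not tested, with 19 values, and reached 2.26 at 353 h and 1.51 at 574 h.

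The snoRNP proteins had the highest medians of the role groups on any array, 1.18 at 574 h and 1.12 at 353 h. NOP1 is fibrillarin, the methyltransferase of box C/D snoRNPs. It read 0.16 and 0.54 in galactose in no3AT, 1.26, 1.07, -0.27 and -0.34 in glucose and -0.06 and 0.12 at steady state. Its 3AT40mM values were 0.31 and 0.13 in galactose, -0.12, 1.15, 0.35, 0.45 and 0.93 in glucose and -0.24 at steady state. The repeat culture gave 0.83 in galactose, -0.13 and 0.59 in early glucose and 0.93, 0.99 and 0.36 at steady state. The early glucose arrays of no3AT lay above its galactose arrays, and those of no3AT2 below.

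NOP56 and NOP58 are the paired core proteins of the same particles. NOP56 read 0.77 and 0.81 in galactose in no3AT, 0.60, 2.46, -0.50 and -0.05 in glucose and 0.31 and 0.06 at steady state. With inhibitor the readings were 0.41 and 0.54 in galactose, 0.60, 1.21, 0.71, 0.33 and 0.35 in glucose and 0.69 at steady state. NOP56 had no value in early glucose in no3AT2, so it was not tested; its other arrays there lay between 0.03 and 0.60. NOP58 read 0.51 and 0.17 in galactose in no3AT, 0.41, 0.16, 0.05 and 0.48 in glucose and -0.47 and 0.48 at steady state. The 3AT40mM chemostat gave -0.16 and 0.20 in galactose, 0.35, 1.42, 0.86, 0.34 and 0.05 in glucose and -0.20 at steady state. For no3AT2 the readings were 0.07 in galactose, -1.05 and -0.77 in early glucose, and 0.37, 0.06 and -0.11 at steady state. NOP58 was thus at its highest at 574 h and at its lowest at 315 h, in 2 cultures that differ in inhibitor and RNA type.

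RRP9, the protein specific to the U3 snoRNP, read 0.60 and 0.25 in galactose in no3AT, -0.30, 1.16, -0.15 and -0.08 in glucose and -0.22 at 526 h. In 3AT40mM it read 0.10 and 0.07 in galactose, 0.25, 1.07, -0.32, 0.65 and 0.30 in glucose and -0.45 at steady state. In no3AT2 it read -0.80 in galactose, 0.56 and -0.64 in early glucose and 0.30 and -0.24 at steady state. At 574 h the 4 snoRNP proteins lay between 1.07 and 1.42. None of the 3 that were tested passed in any comparison over chemostats.

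**Figure D3:**
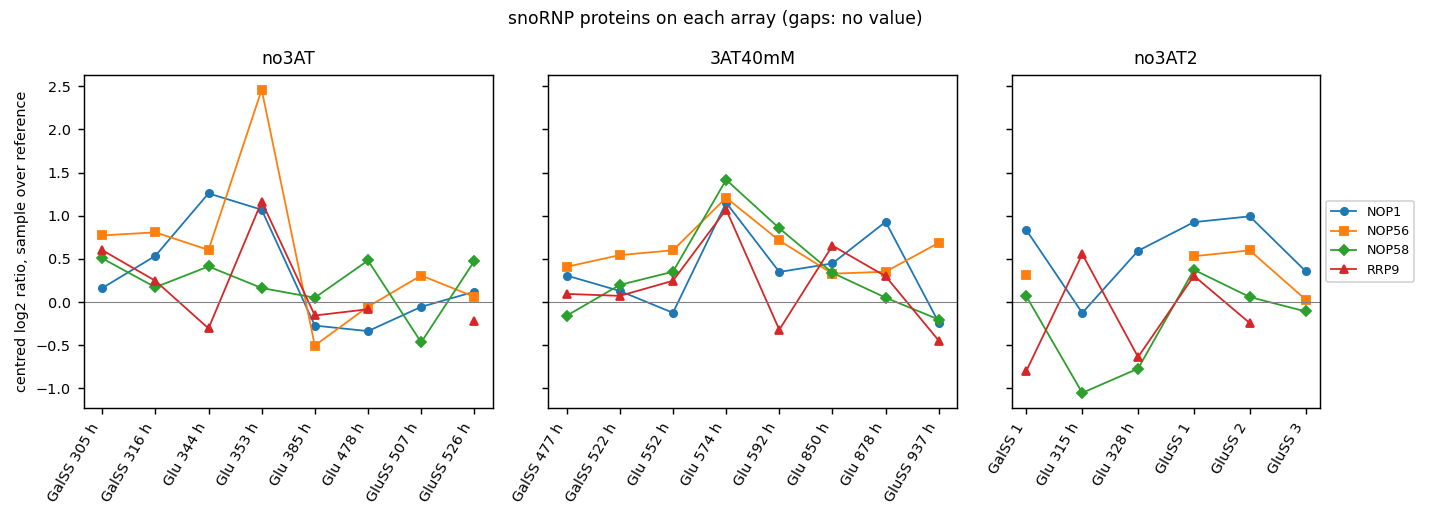
Centred log2 ratio (vertical axis) of NOP1, NOP56, NOP58 and RRP9 on each array (horizontal axis, by chemostat), with gaps where no value was given. All 4 lie between 1.07 and 1.42 at 574 h in 3AT40mM, while at 353 h in no3AT they spread from 0.16 to 2.46.

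The UTP-A proteins bind the precursor first. UTP10, the largest of them, read 0.35 in galactose in no3AT, 0.00, -1.33 and -0.32 in glucose (344, 385 and 478 h) and 0.28 and -1.02 at steady state. Its 3AT40mM values were 0.49 and 0.65 in galactose, 0.25, -0.53, -0.65, -0.34 and -0.07 in glucose and -0.01 at steady state. Its no3AT2 values were 0.62 in galactose, 0.35 and -0.46 in early glucose and -0.42, -0.10 and 0.32 at steady state. All 16 glucose and steady state values of UTP10 lay below every galactose value of the same culture. UTP10 changed by -0.58 in early glucose without passing (adjusted p = 0.202, limma), and the neighbour-corrected value was 0.36. UTP15, of the same complex, stood at its highest, 1.41, at 574 and 592 h, where UTP10 stood at its lowest in that culture. With neighbour-corrected values UTP10 read -0.141 and 0.235 on these arrays and -0.296 and 0.241 in galactose, so that low was not shared.

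UTP22 belongs to UTP-C and was measured on 17 arrays, too few for the test. With inhibitor the readings were 0.50 and 0.86 in galactose, 0.35, -0.25, -0.40, -0.24 and 0.13 in glucose and -0.76 at steady state. Its no3AT values were 0.76 in galactose, 0.89, -0.42 and -0.78 in glucose and 0.21 and -0.66 at steady state. IMP4, which with IMP3 and Mpp10 joins U3 to the precursor, read 0.39 and -0.40 in galactose in no3AT, -0.20, 0.35, -0.74 and -0.84 in glucose and -0.66 and -1.01 at steady state. The 3AT40mM chemostat gave -0.08 and 0.09 in galactose, -0.04, -0.24, 0.19, -0.10 and -0.49 in glucose and -0.41 at steady state. The repeat culture gave 0.37 in galactose, -0.44 and 0.14 in early glucose and -0.31, -0.26 and -0.48 at steady state. IMP4 at glucose steady state lay below every galactose array of the same culture in all 3 cultures, and its change of -0.66 did not pass.

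RRP5, needed for both subunits, and RRP12, an export factor, were not tested because early glucose in no3AT2 gave no value. RRP5 read 0.31 and -0.35 in galactose in no3AT, 0.69, 0.75, 0.47 and 0.50 in glucose and 0.93 and 0.59 at steady state. In 3AT40mM it read 0.09 and 0.15 in galactose, 0.03, 0.98, 0.39, 0.13 and 0.22 in glucose and 1.12 at steady state, and in no3AT2 0.39 in galactose and 0.88, 0.94 and 0.56 at steady state. All 6 steady state arrays in glucose stood above the galactose arrays of the same culture. RRP12 read 0.74 and -0.38 in galactose in no3AT and between -0.59 and 0.89 afterwards. Its 3AT40mM values were -0.27 and 0.05 in galactose, 0.20, 1.05, 0.67, 0.20 and 1.06 in glucose and 0.10 at steady state. In no3AT2 it was lower at steady state, at -0.74, -0.28 and -0.41, than in galactose, at 0.34.

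Large subunit factors were the largest group, with a median of 0.82 at 574 h, where 18 of 20 lay above 0. NSA2, an early large subunit factor, read -0.50 and -0.15 in galactose in 3AT40mM, -0.15, 1.21, 0.59, 0.18 and 0.69 in glucose and 0.55 at steady state. The no3AT chemostat gave 0.18 and -0.25 in galactose, -0.18, -0.38, 1.33 and -0.64 in glucose and 0.21 and 0.60 at steady state. In no3AT2 it lay between -0.31 and 0.66 on all 6 arrays. Both early glucose arrays of either culture without inhibitor lay below 0.

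NOC2, a partner of the NOC1 and NOC3 proteins, read -0.11 and -0.09 in galactose in 3AT40mM, 0.01, 0.78, 0.66, 0.56 and 0.05 in glucose and 0.62 at steady state. In no3AT it read -0.35 in galactose, -0.15, -0.50, 0.44 and 0.76 in glucose and 0.10 and 0.74 at steady state. For no3AT2 the readings were -0.01 in galactose, -0.80 and -0.36 in early glucose and 0.41, 0.05 and 0.57 at steady state. All 6 steady state arrays in glucose lay above the galactose arrays of the same culture, and the change of 0.61 did not pass. RPF2, which brings 5S RNA to the large subunit, read -0.25 and 0.05 in galactose in 3AT40mM and 0.10 to 0.71 on its 5 later arrays with a value. In no3AT it ranged from -0.21 to 1.28 and in no3AT2 from -0.20 to 0.50.

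NOP7, of the complex with Erb1 and Ytm1, read 0.72 and 0.78 in galactose in 3AT40mM, 0.75, 0.83, 0.51, 0.26 and 0.01 in glucose and -0.08 at steady state. Its no3AT values were 0.35 and 0.37 in galactose, -0.16, 0.67, 0.08 and 0.26 in glucose and -0.70 and -0.12 at steady state. In no3AT2 it read 0.35 in galactose, -0.85 and -0.87 in early glucose and -0.02, -0.37 and -0.30 at steady state. NOP7 at steady state lay below every galactose array of its culture in all 3 cultures, and its change of -0.72 did not pass. NOP2, a methyltransferase of the large ribosomal RNA, read 0.52 in galactose in no3AT and 1.67 at 353 h, with -0.93 to 0.06 on the other 5 arrays. In 3AT40mM it peaked at 0.86 at 574 h, and in no3AT2 it read 0.11 in galactose, -0.61 and -0.59 in early glucose and 0.44, -0.32 and 0.10 at steady state.

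The exosome trims precursor ends. RRP4, a cap subunit that binds RNA, read -0.12 and -0.04 in galactose in 3AT40mM, -0.38, 1.34, 0.82, 0.45 and 0.40 in glucose and 0.63 at steady state. The no3AT chemostat gave 0.14 and -0.12 in galactose, 0.33, 0.60, -0.03 and 0.03 in glucose and 0.60 and 0.11 at steady state. Its no3AT2 values were 0.01 in galactose, 1.83 and 0.89 in early glucose and 0.55, 0.70 and 0.47 at steady state. The early change of 0.79 did not pass with all 17 arrays (adjusted p = 0.113, limma), and without the 552 h array it was 1.07 and passed (adjusted p = 0.0458, limma). RRP6, the nuclear exonuclease of the complex, was not tested; it read 0.54 and 0.43 in galactose in 3AT40mM, 0.38, 0.00, 0.15, 0.18 and -0.37 in glucose and 0.52 at steady state. In no3AT it read 0.11 and 0.05 in galactose, 0.02, 1.33, -0.86 and -0.34 in glucose and 0.00 and -0.59 at steady state. The repeat culture gave 0.76 in galactose and -0.71 and -0.55 at steady state.

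The response to the switch was taken as the difference between early glucose, the first 2 labelled glucose arrays of each culture, and galactose steady state, averaged over the 3 cultures. Of 52 members tested, 2 fell and none rose: UTP18 and UTP25, both of the small subunit processome. Of all 4783 genes, 7.09% changed, 6.86% downward and 0.23% upward, against 3.85% of the members. The median change was 0.06 over the members and 0.02 over all genes, and 30 members lay above 0. Large subunit factors had 13 of 19 above 0 with a median of 0.08 and UTP-C and Imp 0 of 3 with a median of -0.20. The exosome had 4 of 6 above 0, other small subunit factors 6 of 10, UTP-A 3 of 5, snoRNP proteins 2 of 3, RNA polymerase I 2 of 4 and UTP-B 0 of 2.

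UTP18, of UTP-B, which contacts the exosome helicase Mtr4, read 0.56 in galactose in no3AT, -1.05, 0.02 and 0.92 in glucose (344, 385 and 478 h) and -2.20 and 0.43 at steady state. With inhibitor the readings were 1.31 and 0.98 in galactose, 0.64, -0.56, -0.39, 0.18 and 0.01 in glucose and -0.48 at steady state. For no3AT2 the readings were 1.61 in galactose, -1.40 and -1.03 in early glucose and -1.18, -1.03 and -1.23 at steady state. In the latter pair of cultures every glucose value lay below every galactose value, while in no3AT the values at 478 and 526 h lay near that of galactose. UTP18 fell by 1.85 in early glucose (SE 0.33, adjusted p = 0.00920, limma, n = 3 chemostats), with changes of -1.61 in no3AT, -1.11 in 3AT40mM and -2.83 in no3AT2. The UTP18 change in 3AT40mM was -1.71 at 574 h alone, and without the 552 h array the change over chemostats was -2.05 (adjusted p = 0.00601, limma).

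UTP25 read -0.28 and 1.16 in galactose in no3AT, -0.60, -1.33, -0.77 and -1.98 in glucose and -0.85 and -1.94 at steady state. The 3AT40mM chemostat gave 0.67 and 0.94 in galactose, 0.75, -0.46, -0.14, 0.04 and 0.37 in glucose and -0.55 at steady state. In no3AT2 it read 0.45 in galactose, -0.83 at 315 h and -0.96 and -0.80 at steady state. The groups of galactose and glucose arrays were apart in no3AT and no3AT2 and touched in 3AT40mM through the 552 h array. UTP25 fell by 1.11 in early glucose (SE 0.28, adjusted p = 0.0276, limma), and without the 552 h array its change was -1.32 (adjusted p = 0.0177, limma).

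Of the up to 3 members with the largest early change in each role group, the others did not pass: NOP9 at -0.91 (adjusted p = 0.0783), NOP16 at 0.80 (0.0884), RRP4 at 0.79, NOP53 at 0.73, UTP14 at 0.72, UTP15 at 0.71, RRP1 at -0.60, UTP10 at -0.58, RPA34 at -0.57, RRP40 at 0.52, UTP6 at -0.49, UTP4 at 0.48, IMP3 at -0.47, RPA14 at -0.45, RRP9 at 0.45, RRP43 at -0.42, RPA12 at 0.35, IMP4 at -0.20, NOP1 at 0.17, RRP7 at -0.14 and NOP58 at -0.05 (limma). Without the 552 h array of 3AT40mM, 4 members passed, NOP9 (-1.19) and RRP4 (1.07) beside UTP18 and UTP25. Without the first galactose array of no3AT 4 passed too, NOP9 and NOP16 beside the same pair. None passed without the array of no3AT at 316 or 344 h, that of 3AT40mM at 574 h or the galactose array of no3AT2. For these counts with an array left out, the share of all genes passing is not given here. They are not read as a result about the members. In a second set of values, called neighbour-corrected, each value was taken relative to the median of 10 rows above and 10 below it in the deposited table, counted in steps of 2. On these UTP18 fell by 0.82 (adjusted p = 0.203, limma) and UTP25 by 0.47 (0.383), and no member passed, beside 0 of 4783 genes. Their share in the shifts of nearby rows was not tested.

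Once the cultures had settled in glucose, more members differed from galactose. Of 52 members, 6 fell and 1 rose. The 6 were UTP18, UTP25, NOP9, RPA34, IMP3 and RPA14, and UTP15 rose. Over all genes 17.5% changed, 13.1% downward and 4.43% upward, and the members' share of 13.5% lies near this background. The median change was -0.11 over the members and 0.02 over all genes. Large subunit factors, 11 of 19 above 0 and none past the test, had a median of 0.22, while RNA polymerase I had 2 of 4 that fell and a median of -0.69.

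**Figure D4:**
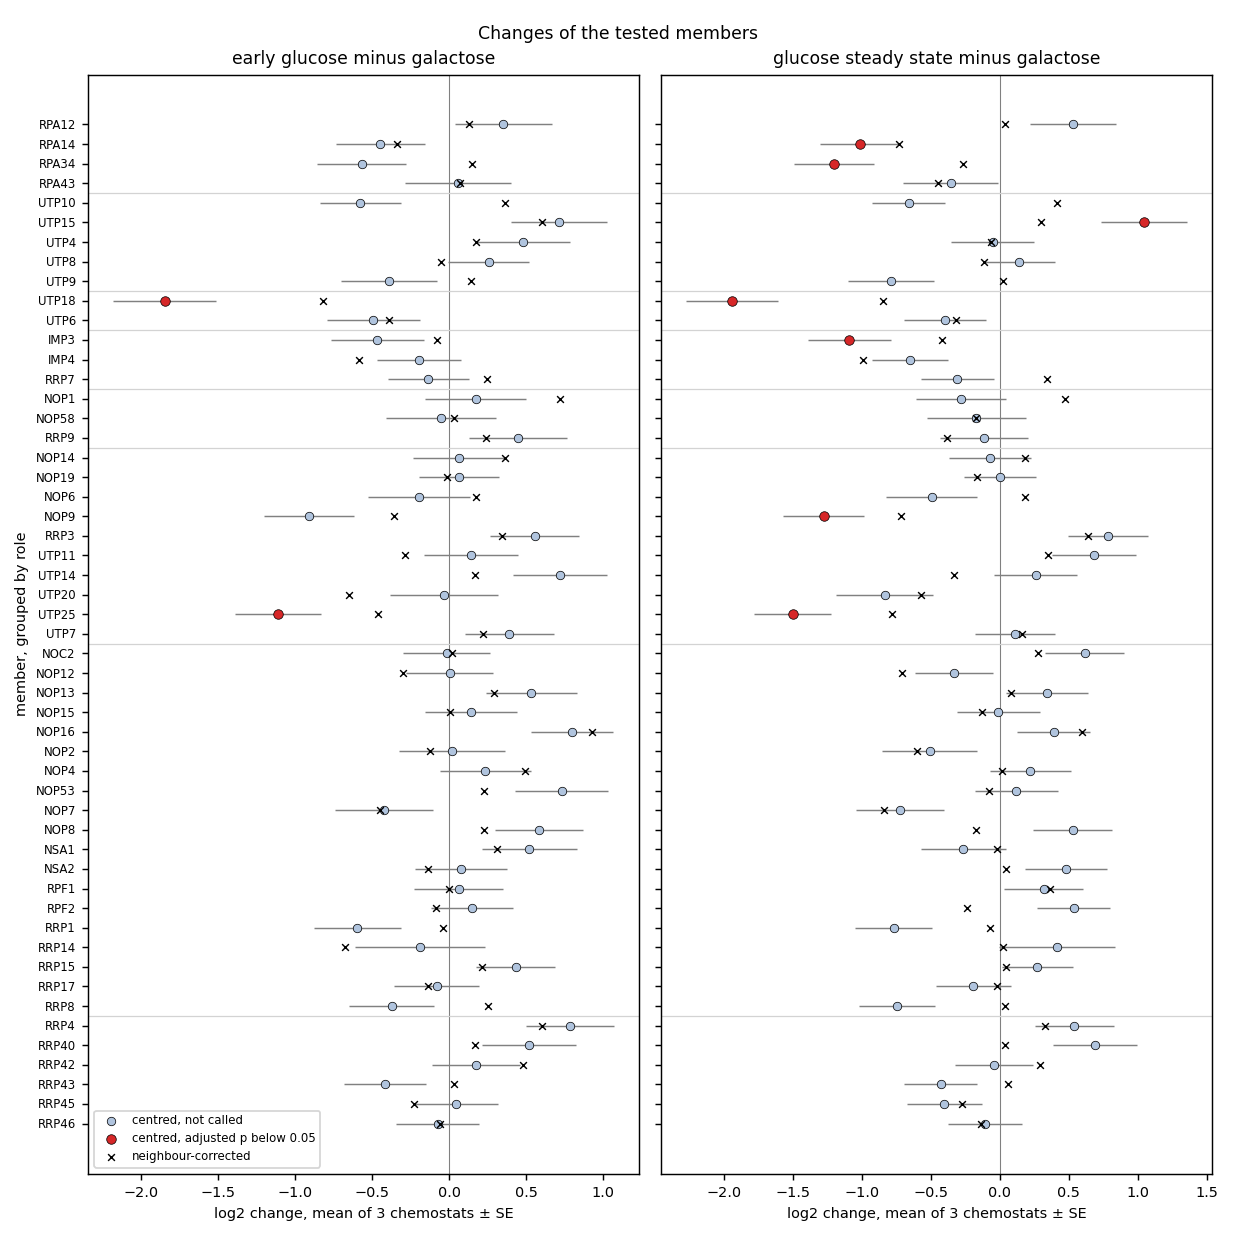
Change in log2 ratio (horizontal axes) of each of the 52 tested members (rows, by role) as the mean of 3 chemostats with its SE, for early glucose (left) and glucose steady state (right) against galactose; red marks an adjusted p below 0.05 and crosses the neighbour-corrected change. UTP18 and UTP25 are red on the left, those and 5 more on the right, and the crosses of all 7 lie nearer to 0.

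UTP18 fell by 1.94 (SE 0.33, adjusted p = 0.00307, limma), with changes of -1.45 in no3AT, -1.63 in 3AT40mM and -2.76 in no3AT2. UTP25 fell by 1.51 (SE 0.28, adjusted p = 0.00348, limma). NOP9, an RNA-binding protein with Pumilio-like repeats, read 0.84 and 0.85 in galactose in 3AT40mM, 0.72, -0.94, -0.87, -0.20 and 0.05 in glucose and -1.11 at steady state. Its no3AT values were -0.16 and 0.77 in galactose, -0.23, -0.88, 0.25 and -0.54 in glucose and -0.32 and -0.79 at steady state, and in no3AT2 0.34 in galactose, -0.65 and -0.51, then -0.54, -0.66 and -0.86. The groups of galactose and steady state arrays did not overlap in any culture. NOP9 fell by 1.28 (SE 0.29, adjusted p = 0.0103, limma).

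IMP3 read -0.37 and 0.27 in galactose in no3AT, -0.32, 0.37, -0.42 and -0.67 in glucose and -1.27 and -1.07 at steady state. In 3AT40mM it read 0.98 and 0.55 in galactose, 0.38, -1.24, -1.20, -0.32 and -0.14 in glucose and -0.48 at steady state, and in no3AT2 0.50 in galactose, -0.11 and 0.56, then -0.71, 0.04 and -0.58. Steady state lay below galactose in each culture, and early glucose overlapped with galactose in no3AT and no3AT2. IMP3 fell by 1.09 (SE 0.30, adjusted p = 0.0243, limma). RPA34 read -0.07 and 0.50 in galactose in no3AT, 0.20, 0.02, -0.43 and -0.78 in glucose and -1.70 and -0.74 at steady state. Its 3AT40mM values were 0.83 and 0.74 in galactose, 0.48, -0.33, -0.44, 0.10 and 0.19 in glucose and -0.35 at steady state, and in no3AT2 0.96 in galactose, -0.12 and 0.27, then -0.03, 0.15 and -0.35. Steady state lay below galactose in each culture.

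RPA34 fell by 1.21 (SE 0.29, adjusted p = 0.0134, limma). RPA14 read 0.47 and 0.59 in galactose in 3AT40mM, 0.40, -0.31, -0.59, -0.47 and 0.05 in glucose and -0.69 at steady state. The no3AT chemostat gave 0.08 in galactose, -0.06 and -1.23 in glucose and -0.66 and -1.57 at steady state, and in no3AT2 0.12 in galactose, -0.59 at 315 h, then -0.74, -0.26 and -0.53. Again no steady state value reached a galactose value. RPA14 fell by 1.02 (SE 0.29, adjusted p = 0.0273, limma). The other measured stalk subunit, RPA43, changed by -0.35 without passing.

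UTP15 read -0.07 and -0.50 in galactose in no3AT, 0.18, -1.05, 0.71 and -0.43 in glucose and 0.29 and 0.01 at steady state. With inhibitor the readings were -0.44 and -0.31 in galactose, -0.21, 1.41, 1.41, 0.93 and 0.24 in glucose and 1.12 at steady state, and in no3AT2 -0.61 in galactose, 0.99 and 0.41, then 0.81, 0.11 and 0.87. All 6 steady state arrays lay above the galactose arrays of the same culture. UTP15 rose by 1.05 (SE 0.31, adjusted p = 0.0345, limma). The change was 0.44 in no3AT, 1.50 in 3AT40mM and 1.21 in no3AT2.

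**Figure D5:**
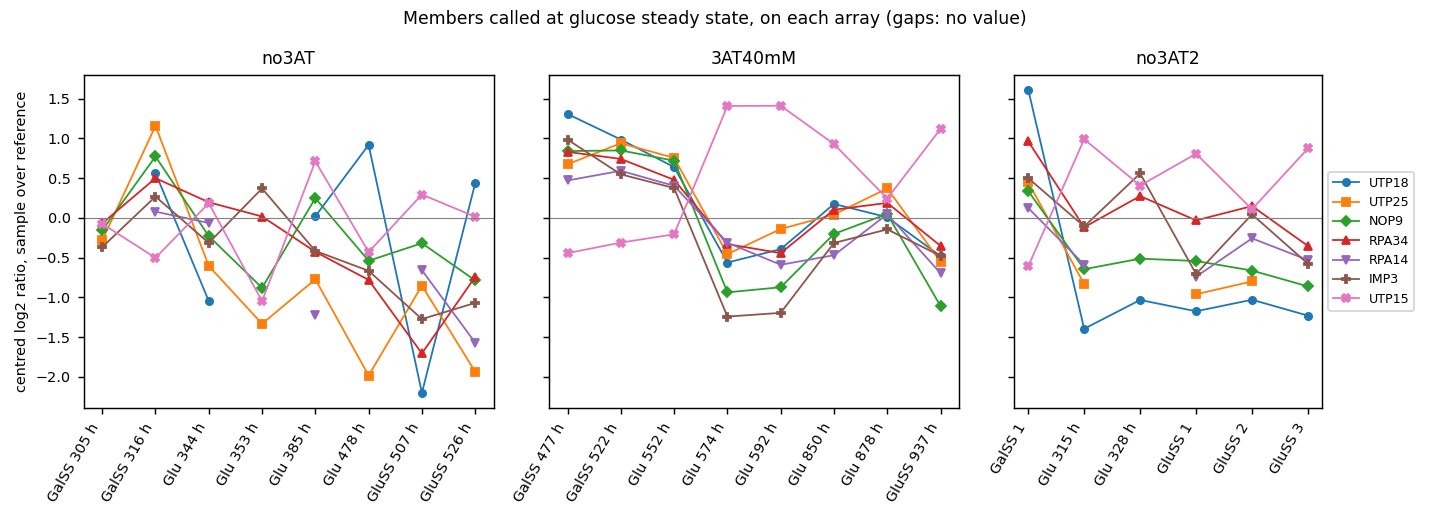
Centred log2 ratio (vertical axis) on each array (horizontal axis, by chemostat) of the 7 members with an adjusted p below 0.05 at glucose steady state against galactose, with gaps where no value was given. In 3AT40mM the 6 that fell lie between 0.38 and 0.75 at 552 h and between -1.24 and -0.31 at 574 h, while UTP15 lies at 1.41.

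With the neighbour-corrected values none of the 52 passed at steady state, beside 20 of 4783 genes. UTP18 then stood at -0.85, UTP25 at -0.79, RPA14 at -0.73, NOP9 at -0.72, IMP3 at -0.42, RPA34 at -0.27 and UTP15 at 0.30, each with the same sign as before. The locus tags of UTP18 (YJL069C), NOP9 (YJL010C) and RPA34 (YJL148W) place these genes on the same chromosome arm. UTP10 (YJL109C), which did not pass, lies there too, and UTP25, IMP3, RPA14 and UTP15 lie on other chromosomes. The part of a shift shared by nearby rows in these results was not tested. The counts that follow leave out single arrays. They come without the share of all genes and are not a result about the members. With centred values, 3 members passed without the no3AT array at 316 h, 3 without that at 344 h, 4 without the 3AT40mM array at 552 h, 2 without that at 937 h and 3 without the galactose array of no3AT2.

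Glucose steady state was also compared with early glucose. No member passed, and 4 (beside 7.19% of all genes) had an unadjusted p under 0.05 (limma). These were NSA1 at -0.79, UTP20 at -0.80, RPA34 at -0.64 and NOC2 at 0.63, each with an adjusted p of 0.673. Over all genes 0% passed. Of the 52 members, 41 lay below 0 and the median was -0.18, beside -0.04 over all genes. The ribosomal protein genes had a median of -0.35 in the same comparison.

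Within single cultures 1 member passed in 9 comparisons (limma). Here the p measures only the spread between arrays of the same culture and phase, pooled over all cultures. The galactose phase of no3AT2 and the steady state of 3AT40mM are single arrays and take that spread from the other groups. RRP14, needed for both subunits, rose by 2.10 between early glucose and glucose steady state in no3AT2 (SE 0.47, adjusted p = 0.0457, limma), where 0.648% of all genes changed. RRP14 read -0.06 in galactose in that culture, -1.82 at 315 h, had no value at 328 h, and read 0.27, 0.53 and 0.06 at steady state. The early value is thus a single array. In no3AT it read between 0.04 and 0.78 on all 8 arrays, and in 3AT40mM -0.08 and -0.18 in galactose, 0.08, 1.12, 0.99, 0.89 and 0.16 in glucose and 0.51 at steady state. With neighbour-corrected values the rise was 2.10 (adjusted p = 0.0101, limma). With the values as deposited the rise did not pass (adjusted p = 0.0517, limma), nor after quantile normalization, where it was 1.47 (adjusted p = 0.135, limma). It passed in 9 of 22 alternatives, with adjusted p-values from 0.00576 to 0.214.

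In the other 8 comparisons no member passed. At an unadjusted p under 0.05 (limma) there were 2 members in early glucose, 8 at steady state and 12 between those phases in no3AT, beside 11.3%, 15% and 14.4% of all genes. In 3AT40mM there were 1, 10 and 2, beside 9.83%, 16% and 6.9%. In no3AT2 there were 8 in early glucose and 4 at steady state, beside 24.1% and 15.8%. After adjustment, genes passed at 0%, 0.0836% and 1.02% in no3AT, at 0% in each comparison of 3AT40mM, and at 0.523% and 1.38% in no3AT2. The median member change in early glucose was 0.02 in no3AT, 0.24 in 3AT40mM and -0.40 in no3AT2, beside 0.00, -0.02 and -0.06 over all genes. The no3AT2 median was -0.07 with neighbour-corrected values and -0.05 over genes valued on all 17 arrays, and that of 3AT40mM was 0.50 without the 552 h array. At steady state it was -0.31, -0.32 and 0.01, beside -0.04, -0.09 and 0.10, and the -0.32 of 3AT40mM was -0.09 with neighbour-corrected values.

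The early comparison in 3AT40mM depended on the 552 h array. Without it, 10 of the 52 members passed, or 19.2%, where 28.1% of all genes did, with 574 h as the only early array. NSA2 (1.53), RRP4 (1.42), UTP7 (1.25), RRP14 (1.25), UTP15 (1.78), NOP13 (1.56), NOP8 (1.64) and NOP58 (1.40) rose. IMP3 (-2.01) and NOP9 (-1.78) fell. Their adjusted p-values lay between 0.00715 and 0.0407 (limma), with this single array taken to have the spread of the rest.

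Cultures were compared by their level in galactose, their level at glucose steady state and their change from galactose in either phase, 3AT40mM and no3AT2 each against no3AT. No member passed in any of the 8 comparisons, and at most 4 had an unadjusted p under 0.05 (limma, the early change of no3AT2 against no3AT, where 13% of all genes did). Between no3AT2 and no3AT, 0.23% of all genes differed at steady state and 0.105% in early change, and in each of the other 6 comparisons 0% did. The members' median difference at steady state was 0.06 for 3AT40mM and 0.25 for no3AT2. These p-values do not show that the cultures were alike.

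Over the 22 arrays, the members most like the median of the other members were NOP12 (r = 0.71), NOP1 (0.53) and UTP9 (0.49), out of 33 with all values. NOP12 is a large subunit factor that binds the precursor RNA. The least like were RPA12 (-0.32), IMP3 (-0.27) and NOP9 (-0.22). Outside the members, the 10 genes most like the member median were ERG1 (0.77), TNA1 (0.73), SSH1 (0.69), CHO2 (0.69), CTP1 (0.68), ARX1 (0.67), RIM101 (0.65), NUG1 (0.64), ERG11 (0.63) and FLC3 (0.63), out of 3081 genes with all values. ARX1 and NUG1 are themselves export and assembly factors of the large subunit. With neighbour-corrected values the order was led by NOP14 (0.78), NOP15 (0.71) and UTP15 (0.69) among the members, and by ERG1 (0.83) and ARX1 (0.83) outside them.

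Members differed in how far they ranged. UTP18 had the widest range, from -2.20 to 1.61, and then UTP25, from -1.98 to 1.16. Among members with all 22 values NOP19, a small subunit factor, had the narrowest, from -0.36 to 0.56, followed by RRP42 of the exosome, from -0.42 to 0.67. The median SD over arrays was 0.47 for these members and 0.53 for all genes with all values.

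The other lists give the surroundings of the pathway. Of the 76 tested other ribosome biogenesis genes, 2 fell in early glucose, FAF1 (-1.37) and ALB1 (-1.02), and none rose. At steady state 13 fell, among them FAF1 (-1.82), DBP8 (-1.62), SPB1 (-1.44), MAK16 (-1.19), MPP10 (-1.02) and PWP2 (-0.87), and NPA3 rose by 0.97. Over all 4783 genes 13.1% fell at steady state and 4.43% rose. The list's median was -0.05. MPP10 and PWP2 are partners of IMP3 and of UTP18. Of 14 initiation factors and shared subunits of RNA polymerase I, RRN7 (-1.46 early, -1.71 at steady state) fell, and of 8 RNA polymerase III subunits RPC17 (-1.39 and -1.49) fell. Of 7 regulators, SCH9, the kinase that promotes ribosome synthesis, fell by 1.47 at steady state. Of 125 ribosomal protein genes none passed in early glucose and 2 rose at steady state, with medians of 0.19 and -0.19. They were RPS22B (0.92) and RPP1 (1.06), and RPP1 is a subunit of RNase P, in the list through its symbol alone. With neighbour-corrected values no gene of these lists passed in either comparison, beside 0 and 20 of all 4783 genes.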

How the data were processed

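The authors deposited a single table of signed ratios, 1 column for each array, without spot intensities. They were read as deposited log2 ratios, sample (Cy5) over reference (Cy3). No source used here gives the log base, scanner, background correction or normalization; with another base all log2 values would scale. Per the labels' protocols, RNA was extracted with hot phenol. Of 6281 rows, 5763 were named through the R64 gene table, rows of the same gene were averaged, and each array was centred on its median (-0.15 to 0.07 as deposited). Arrays held 4694 to 6143 values; their number limits the precision.

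The tests took genes measured on 80% or more of all 22 arrays and at least once in every phase of every chemostat, 4783 in all and 52 of the 68 members. The other 16 were RPA135, RPA190, RPA49, UTP5, UTP13, UTP21, UTP22, UTP23, UTP30, RRP5, RRP6, RRP12, RRP36, NOC3, NOC4 and NOP56. limma 3.58.1 in R 4.3.3 was fitted to 9 phase means from 17 arrays, blocked by chemostat (4 residual, 10.4 prior degrees of freedom), and to the 17 arrays with 1 mean per chemostat and phase (8 and 11.4). The p-values, two-sided, carry a Benjamini-Hochberg adjustment over all 4783 genes, with a threshold of 0.05. The 5 later glucose arrays entered no fit. The fits were run on simulated data with independent noise and the same added change in every chemostat. The simulation held no culture effect and no shift shared by nearby rows, so it cannot test the fits against these. The members, role groups, lists, rules and alternatives were chosen with earlier results of these data known. Named are all members past the threshold, up to 3 of each role group with the largest early change, 19 members given array by array, and the 3 most and 3 least like the rest. Promoter motifs were not analysed here.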

Additional observations from a re-analysis of the deposited data

Results flagged for a closer look

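The median of the snoRNP proteins stood apart from the other glucose arrays of 3AT40mM at 574 h, at 1.18. The checks used centred values. With neighbour-corrected values this median was 1.232 at 574 h and 0.222 to 0.522 on the other glucose arrays before steady state. RRP9 stood apart from the other glucose arrays of no3AT at 353 h, at 1.16 (1.165). In all, 48 checks were made by Dixon's test, each of a median or a member within the 4 or 5 glucose arrays before steady state. Only no3AT and 3AT40mM had enough arrays in a phase for a check. Of these checks, which share genes and arrays, 2 stood out, where chance gives about 1 in 20.

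The median change of the members from galactose was above 0 on both early glucose arrays of 3AT40mM and below 0 on both of no3AT2. Averaged over the 2 arrays it was 0.331 in 3AT40mM and -0.302 in no3AT2. The first of these averages 0.035 at 552 h, on the array that resembles galactose, with 0.627 at 574 h. With neighbour-corrected values the no3AT2 arrays read -0.222 and 0.038, so their sign was not shared. The medians rest on 67 and 66 members in 3AT40mM and on 54 and 46 in no3AT2, so not on the same members. The difference was not tested. The 3AT40mM arrays carry total RNA and inhibitor, the no3AT2 arrays polyA RNA and none, so these cannot be told apart.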

How the results depend on the processing

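The median change of the members in the 3 comparisons over chemostats was taken under all 29 alternatives. It lay between -0.10 and 0.22 in early glucose, where the main value was 0.06, so its sign was not shared. At steady state it lay between -0.21 and -0.04 (main value -0.11), and between these phases -0.28 and -0.08 (main value -0.18). The counts moved. In early glucose 2 members passed, against 1 with quantile normalization, 0 with neighbour-corrected values, 0 with genes valued on all 17 arrays (34 members tested), 0 with no chemostat block, and 1, 0 and 1 with no3AT, 3AT40mM or no3AT2 left out. Leaving out single arrays gave 0 to 4. At steady state against galactose 7 passed, against 14 with quantile normalization, 0 neighbour-corrected, 4 with values on all 17 arrays, 10 with robust moderation, 5 with no chemostat block, and 4, 2 and 15 with no3AT, 3AT40mM or no3AT2 left out; single arrays left out gave 2 to 9. UTP15 (adjusted p = 0.0690, limma) and IMP3 (0.0503) did not pass without the block, nor UTP15 with arrays as units (0.0513). Between early glucose and steady state 0 became 2 without no3AT2. With quantile normalization the 14 members at steady state were 26.9% of those tested, beside 25.5% of all genes. The 1 in early glucose was 1.92%, beside 4.5%. For most other alternatives the share of all genes is not given here, and their counts are not a result about the members.

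Within cultures, the 1 member passing between early glucose and steady state in no3AT2 became 0 with the values as deposited, with quantile normalization and with values on all 17 arrays, and 0 to 1 with single arrays left out. The count of 0 became 1 with quantile normalization at steady state in 3AT40mM and in no3AT2, and 1 with neighbour-corrected values in early glucose in no3AT2. With single arrays left out the counts were 0 to 2 in early glucose and 0 to 2 at steady state in no3AT, 0 to 5 between these phases (5 without the 344 h array), 0 to 10 and 0 to 1 in 3AT40mM, and 0 to 2 and 0 to 1 in no3AT2. Between cultures it was 0 throughout. The share of all genes under these settings is mostly not given here, so the counts are not a result about the members. The member median at 574 h was 0.35 with quantile normalization, against 0.50. The cause of these moves was not tested. Single arrays were not paired across phases, because the labels number replicates in only 1 group. The chemostat block pairs the phases of a culture.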
